A study of Homo sapiens with 12 samples.

Results

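Expression of the transcription factor gene BCL6, of 8 genes of the Krüppel-like factor (KLF) family and of CITED2 was examined in synovial sarcoma cell lines treated with ZSTK474, an inhibitor of all class I forms of phosphatidylinositol 3-kinase (PI3K). The members were the probe sets annotated with exactly 1 gene symbol among BCL6, KLF2, KLF3, KLF4, KLF6, KLF7, KLF9, KLF10, KLF11 and CITED2, which gave 10 of 19775 named genes and 32 of the 54675 probe sets of the human U133 Plus 2.0 GeneChip made by Affymetrix. A probe set is a group of short probes that together read 1 transcript. The lines were Aska-SS and Yamato-SS, which carry the SS18-SSX1 fusion gene, and SYO-1 and Fuji, which carry SS18-SSX2, and each was cultured for 24 h in RPMI-1640 medium with 5% fetal bovine serum and 0, 0.3 or 3 µM ZSTK474. The 0 µM group was the control. There was 1 array for each of the 4 lines at each of the 3 doses, 12 arrays in all, so the replicates of a dose were the 4 cell lines, and no source says whether the cultures of a line were set up separately. The p-values of the dose comparisons therefore rest on how evenly different lines moved, and not on repeated cultures of 1 line.

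BCL6 is a zinc finger repressor that recruits corepressors through its BTB domain, is best known from germinal centre B cells, and is a described target of FOXO factors, which PI3K and Akt signalling keeps out of the nucleus. KLF proteins bind GC-rich and CACCC-type sequences with a shared set of C-terminal zinc fingers. Their N-terminal parts differ, so that some members mainly recruit coactivators and others, such as KLF3, KLF9, KLF10 and KLF11, mainly recruit corepressors. CITED2 does not bind DNA by itself and acts through the coactivators CBP and p300.

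Values are MAS5 signal intensities after quantile normalization, and the 4 values of a dose are always given with Aska-SS first, then SYO-1, then Yamato-SS and last Fuji. Differences are on the log2 scale of the floored intensities, where 1 is a doubling, and were tested in limma, with cell line as a blocking term and a call at an adjusted p under 0.05. Of the 32 probe sets, 29 passed a filter on dim signals, namely 3 of BCL6, 1 of 2 of KLF2, 4 of KLF3, 2 of KLF4, 5 of KLF6, 5 of KLF7, 4 of 5 of KLF9, 1 of KLF10, 2 of KLF11 and 2 of 3 of CITED2. Probe sets of 1 gene read the same RNA and are not replicates of each other. The brightest probe set stands for a gene where a single value is given.

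Before quantile normalization, the control arrays had median intensities of 60.1 to 70.6, those at 0.3 µM of 63.6 to 77.7, and those at 3 µM of 71.0 to 85.3. Of 8 synovial sarcoma markers 6 passed the filter, with TLE1 at 7260.2 to 24076, while NGFR and GRIA2 lay below it, and the summed level of the list was 21855 to 44290 in the controls, 26377 to 47753 with 0.3 µM and 24717 to 52789 with 3 µM. The leukocyte marker PTPRC lay at 1 to 36.1 and 1 of the 8 leukocyte markers on the array passed, with summed levels of 367 to 584 in the controls, 348 to 479 with 0.3 µM and 337 to 431 with 3 µM. Of 8 endothelial markers 2 passed, with summed levels of 343 to 2252 in the controls, 334 to 2354 with 0.3 µM and 257 to 2414 with 3 µM. The beta-actin control probe sets, which report on RNA integrity, had a log2 ratio of 3′ to 5′ signal that exceeded the control by 0.209, 0.12, 0.205 and 0.589 in the 4 lines at 3 µM. The same ratio of GAPDH differed by -0.127, 0.0355, 0.148 and 0.0317, and the part of these shifts in the changes below was not tested. In RNA from whole cultures, fewer cells that express a gene and less of its RNA per cell cannot be told apart.

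At 3 µM, 16 of the 29 tested member probe sets rose, 0 fell and 13 did not pass in limma, with 18 at an unadjusted p under 0.05, of which 0 were lower. Over all 27279 probe sets tested, 13117 had an unadjusted p under 0.05 in limma, in either direction. The share that rose was 55.2%, beside 19.6% of all 27279 probe sets tested, and the share that fell in the whole table was 19.8%. The median change of the member probe sets was 0.64, and that of all probe sets was 0.0013. By the brightest probe set, 8 of the 10 genes rose, beside 22.5% of all 12124 genes, and the exceptions were KLF2 and KLF7. The members were chosen with earlier results of these data known, so the shares here and below are a description and not a test. All 4 arrays at 3 µM lay above all 4 arrays at 0 µM in 5 member probe sets, which were the 3 of BCL6 and 2 of KLF9, beside 4.98% of all probe sets tested. The plot of levels by dose and line shows these patterns for the 10 genes.

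**Figure D1:**
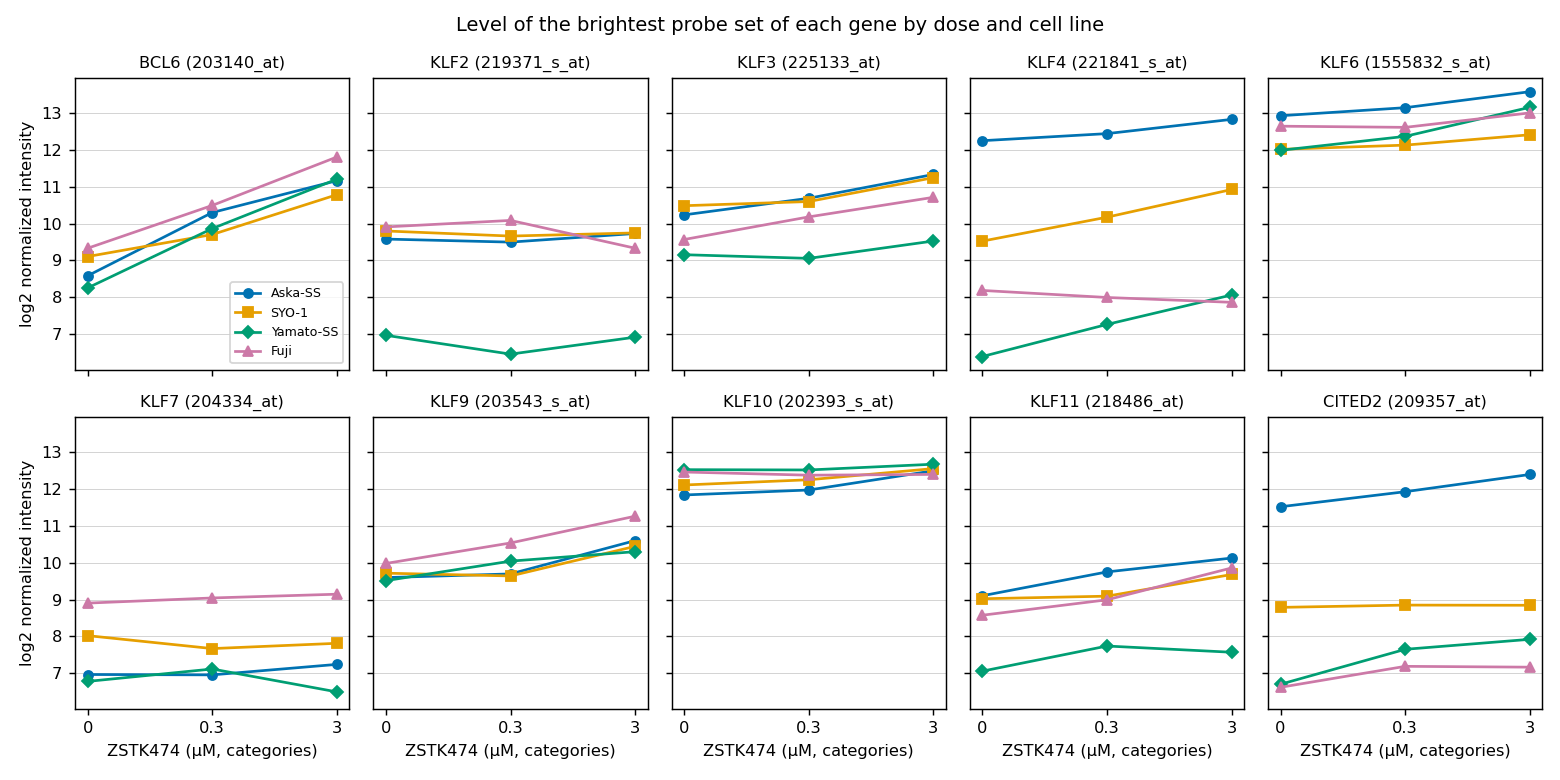
Log2 normalized intensity of the brightest probe set of each gene (vertical axis) at 0, 0.3 and 3 µM ZSTK474 (horizontal axis, drawn as categories), with 1 point per array and 1 line per cell line; levels are to be compared within a panel, since probe sets differ in brightness for the same amount of RNA. BCL6 lay higher at each dose step in all 4 lines, while KLF4, CITED2 and KLF2 were set apart more by cell line than by dose.

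BCL6 had the largest change of the 10 genes. The probe set 203140_at read 384, 551, 305 and 644 at 0 µM. It read 1262, 834, 934 and 1443 at 0.3 µM, and 2297, 1766, 2366 and 3588 at 3 µM. Each line was higher at each dose step, and the lowest array at 3 µM (1766, SYO-1) lay above the highest at 0 µM (644, Fuji). The change at 3 µM was 2.42 (SE 0.18, n = 4 lines, 5.36-fold) with an adjusted p of 6.53e-06 in limma. By line, the levels at 3 µM were 5.99, 3.20, 7.75 and 5.57 times those at 0 µM, so SYO-1 had the smallest ratio and Yamato-SS the largest.

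The other BCL6 probe sets moved the same way. The probe set 215990_s_at read 129, 89.6, 101 and 87.6 at 0 µM and 340.2, 292, 502 and 573 at 3 µM, a change of 2.03 (SE 0.20) with an adjusted p of 2.33e-05 in limma. The probe set 228758_at read 92.5, 99.1, 106 and 104 at 0 µM and 489, 213, 271 and 418 at 3 µM, a change of 1.72 (SE 0.23) with an adjusted p of 0.000144 in limma. In both, every array at 3 µM lay above every control array. The 3 probe sets differed in which line had the largest change, which was Yamato-SS, Fuji and Aska-SS in turn.

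The BCL6 promoter is shown because BCL6 moved most and is a described FOXO target, and those of KLF6 and KLF9 because these KLF genes were higher at 3 µM in every line and their promoters differ widely in base composition. The sequences are the 250 bases before a transcript start, from RefSeq on GRCh38.p14, written 5′ to 3′ on the strand of the gene. Of the 10 genes, 8 matched the table with 15 promoters, and KLF3 and KLF10 did not. BCL6 has more than 1 start in the table, and the one printed was chosen because it holds a motif match. Capitals mark matches to the motifs searched.
BCL6, chr3:187745469-187745718, minus strand: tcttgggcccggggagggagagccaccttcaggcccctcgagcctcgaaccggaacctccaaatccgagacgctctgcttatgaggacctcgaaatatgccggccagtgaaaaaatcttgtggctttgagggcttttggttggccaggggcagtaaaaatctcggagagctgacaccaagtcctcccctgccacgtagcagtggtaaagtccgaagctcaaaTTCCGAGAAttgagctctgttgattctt
KLF6, chr10:3785210-3785459, minus strand: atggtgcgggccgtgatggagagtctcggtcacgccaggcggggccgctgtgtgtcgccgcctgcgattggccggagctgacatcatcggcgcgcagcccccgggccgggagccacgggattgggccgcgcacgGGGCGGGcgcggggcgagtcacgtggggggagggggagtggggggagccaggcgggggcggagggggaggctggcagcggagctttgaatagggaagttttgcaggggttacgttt
KLF9, chr9:70414658-70414907, minus strand: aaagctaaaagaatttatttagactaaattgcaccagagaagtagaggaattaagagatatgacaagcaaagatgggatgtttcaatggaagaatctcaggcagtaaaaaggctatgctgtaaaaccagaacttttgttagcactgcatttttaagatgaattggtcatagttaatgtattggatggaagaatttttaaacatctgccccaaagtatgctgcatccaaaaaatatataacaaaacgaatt

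The capitals in BCL6 mark TTCNNAGAA, the core of the element that BCL6 itself and STAT factors bind, which starts 28 bases before the transcript start. This motif was found in 1 of the 15 member promoters and in 3.83% of all 35116 promoters. The capitals in KLF6 mark the GC box GGGCGGG, a type of sequence that SP and KLF factors bind, which starts 116 bases before the transcript start. The GC box was found in 9 of the 15 member promoters and in 31.5% of all promoters, and the promoter of KLF6 has a GC content of 72.4%. The 9 promoters belong to 6 of the 8 genes, and 1 site of CITED2 lies in 2 overlapping windows and is counted in both. The printed KLF9 window has a GC content of 32.4% and holds no match, and that of BCL6 has one of 54.4%. The FOXO element GTAAACA was found in 0 of the 15 member promoters and 2.98% of all, the related CAAAACAA in 0 and 1.46%, and the KLF element CCACACCC in 0 and 2.97%. A CArG box, the element of serum response factor, was found in 1 member promoter, of KLF7, and in 1.16% of all. Both strands were searched, and these are matches of letters only.

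The KLF genes that mainly recruit corepressors are described first. KLF9, which several hormone receptors induce, rose in both of its bright probe sets. The probe set 203543_s_at read 773, 840.1, 729.9 and 1009 at 0 µM and 1551, 1392, 1259 and 2454 at 3 µM, a change of 0.95 (SE 0.13, n = 4 lines) with an adjusted p of 0.000166 in limma. The probe set 203542_s_at read 625, 678, 546 and 785 at 0 µM and 1115, 1052, 1211 and 1965 at 3 µM, a change of 0.99 (SE 0.12) with an adjusted p of 8.76e-05 in limma. Every array at 3 µM lay above every control array in both, and Fuji was highest at 0 and at 3 µM. The dimmer KLF9 probe sets 203541_s_at and 230636_s_at had changes of 0.58 (95% interval -0.07 to 1.24) and 0.02 and did not pass. The remaining one, 228474_s_at, lay at 6.66 to 77.9 and was not tested.

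KLF3, a repressor that binds the corepressor CtBP, rose in 1 of its 4 probe sets. The brightest, 225133_at, read 1207, 1434, 571 and 759 at 0 µM and 2582, 2430.2, 738 and 1679.6 at 3 µM. All 4 lines were higher at 3 µM, and the doses overlapped because Yamato-SS at 3 µM lay below Aska-SS, SYO-1 and Fuji at 0 µM. The change was 0.84 (SE 0.13) with an adjusted p of 0.00033 in limma. The other KLF3 probe sets did not pass, with changes of 0.39 (95% interval 0.03 to 0.75), 0.10 (-0.40 to 0.59) and 0.14 (-0.30 to 0.57).

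KLF11, which recruits the SIN3A corepressor, rose in both of its probe sets. The brighter, 218486_at, read 549.5, 519, 133.1 and 381 at 0 µM and 1116, 819.9, 189.9 and 927 at 3 µM, a change of 0.87 (SE 0.16) with an adjusted p of 0.00127 in limma. All 4 lines were higher at 3 µM, with Yamato-SS lowest at both doses. The dimmer, 1553137_s_at, read 90.9, 115, 44.6 and 85.7 at 0 µM and 209.5, 118, 67.8 and 201 at 3 µM, a change of 0.77 (SE 0.27) with an adjusted p of 0.0388 in limma. SYO-1 was nearly level in it, and its call was lost when Aska-SS, Yamato-SS or Fuji was left out, with adjusted p of 0.161, 0.0647 and 0.182 in limma. It was lost too without the filter (adjusted p 0.0975), with the 2 doses alone (0.0695) and with array weights (0.107).

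KLF10, a gene that TGF-beta induces early, has 1 probe set. It read 3656, 4411, 5886 and 5630.2 at 0 µM and 5763, 6007, 6521 and 5382 at 3 µM. Aska-SS, SYO-1 and Yamato-SS were higher at 3 µM and Fuji was lower. The change was 0.30 (SE 0.10, 1.23-fold) with an adjusted p of 0.0336 in limma, the smallest of the 8 genes that rose. Without quantile normalization it was 0.19 with an adjusted p of 0.165, beside a median shift of all probe sets of 0.108 on that scale. The call was also lost without Aska-SS (0.18, adjusted p 0.221), SYO-1 (0.25, adjusted p 0.161) or Yamato-SS (0.34, adjusted p 0.0514) in limma. It was lost too without the filter on dim probe sets (adjusted p 0.117), without the mean-variance trend (0.0895) and in the fit of the 2 doses alone (0.104), and KLF10 kept its call in 6 of 14 alternatives.

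KLF6, a GC-box binding activator with many described targets in cell growth and the extracellular matrix, rose in 4 of its 5 probe sets. The brightest, 1555832_s_at, read 7786, 4141, 4065 and 6400.4 at 0 µM and 12243, 5447, 9133 and 8222 at 3 µM. All 4 lines were higher at 3 µM, with the largest difference in Yamato-SS, and the dose groups overlapped. The change was 0.64 (SE 0.11, 1.56-fold) with an adjusted p of 0.000674 in limma, and those of 224606_at, 208961_s_at and 208960_s_at were 0.66, 0.61 and 0.53. For 208960_s_at the call was lost without Aska-SS (0.54, adjusted p 0.0672) or Yamato-SS (0.28, adjusted p 0.0889), without the filter (adjusted p 0.0892) and with the 2 doses alone (adjusted p 0.0554) in limma. The probe set 211610_at, at 55.6 to 152 on all arrays, had a change of -0.33 (95% interval -0.85 to 0.19) and did not pass.

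KLF4, a factor of epithelial differentiation and of reprogramming to pluripotency, rose by its brighter probe set, and not in every line. The probe set 221841_s_at read 4869.7, 737, 84.1 and 291 at 0 µM, 5563, 1156, 154 and 255 at 0.3 µM, and 7276, 1946, 268 and 233 at 3 µM. Aska-SS, SYO-1 and Yamato-SS were higher at each dose step, and Fuji was lower at each. The change at 3 µM was 0.83 (SE 0.24) with an adjusted p of 0.016 in limma, and by line it was 0.58, 1.40, 1.67 and -0.32. The call was lost without SYO-1 (0.64, adjusted p 0.116) or Yamato-SS (0.55, adjusted p 0.105), without the filter on dim probe sets (adjusted p 0.103) and in the fit of the 2 doses alone (adjusted p 0.0522) in limma.

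The dimmer KLF4 probe set, 220266_s_at, read 666, 94.2, 2.13 and 14.2 at 0 µM and 846, 158, 64.5 and 12.01 at 3 µM. Values under the floor of 12.1 were raised to it, so the change of 2.41 in Yamato-SS is a lower bound, and no order can be read from the treated Fuji value. The fitted change was 0.82 (95% interval -0.07 to 1.71) and did not pass, with an adjusted p of 0.135 in limma.

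CITED2 rose by its brightest probe set. The probe set 209357_at read 2930.3, 442, 104 and 98.2 at 0 µM, 3889, 461, 201 and 146 at 0.3 µM, and 5378, 459, 242 and 143 at 3 µM. The level in SYO-1 was nearly the same at all doses, and the other lines were higher with the drug. The change at 3 µM was 0.67 (SE 0.17, 1.60-fold) with an adjusted p of 0.00741 in limma, and 0.62 with an adjusted p of 0.0732 without Aska-SS. The probe set 207980_s_at had a change of 0.67 (95% interval 0.03 to 1.31, adjusted p 0.0916 in limma), with SYO-1 at -0.74 and the others at 0.61 to 1.63. The remaining one, 227287_at, lay at 3.49 to 21.6 and was not tested.

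KLF2 and KLF7 did not pass by their brightest probe sets. KLF2, a factor known from quiescent lymphocytes and endothelium and a described FOXO1 target in T cells, read 766, 892, 125 and 962 at 0 µM and 850.4, 859.9, 121 and 644 at 3 µM in 219371_s_at. Its lines did not move together, with Aska-SS higher and Fuji lower, and the change was -0.13 (95% interval -0.50 to 0.24, adjusted p 0.571 in limma). The other KLF2 probe set lay at 5.21 to 80.4 and was not tested.

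KLF7, a factor known from neuronal development, read 125, 259.5, 109.7 and 478 at 0 µM and 151, 225, 90.0 and 566 at 3 µM in its brightest probe set, 204334_at. The change was 0.01 (95% interval -0.39 to 0.40, adjusted p 0.983 in limma). Of its other 4 probe sets, 240432_x_at rose by 0.74 (SE 0.22, adjusted p 0.0175 in limma), from 53.4, 91.2, 46.3 and 243 to 89.5, 151, 93.0 and 341. The suffix _x_at marks a probe set whose probes can also bind other transcripts, and the call was lost without SYO-1, Yamato-SS or Fuji (adjusted p of 0.054, 0.0529 and 0.0611) and with array weights (0.0558). The remaining KLF7 probe sets had changes of 0.08, -0.54 and -0.38 and did not pass. The plot of the change in each cell line shows all 29 probe sets tested.

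**Figure D2:**
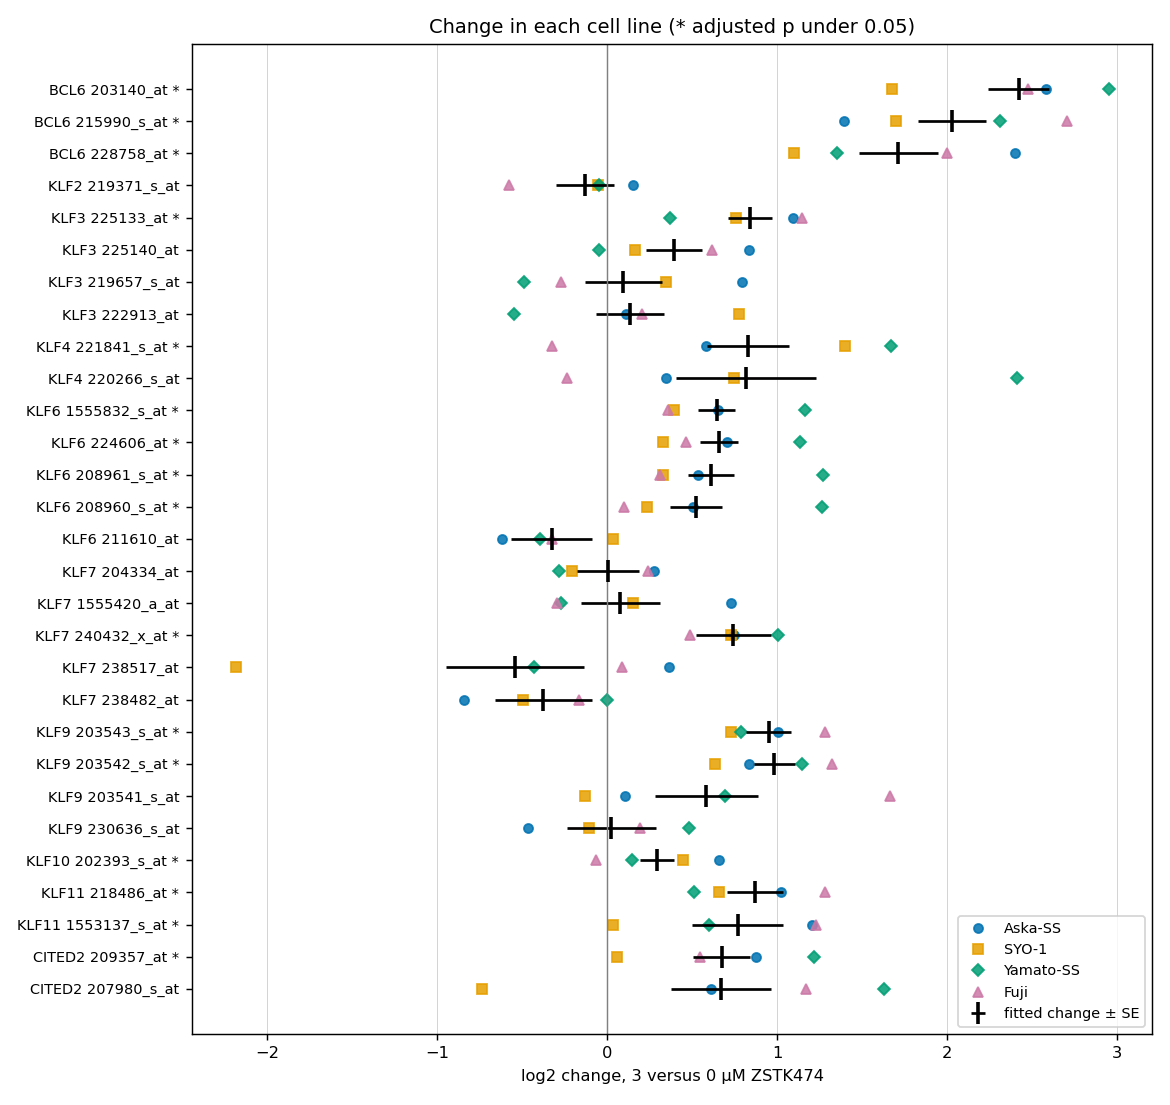
Log2 change from 0 to 3 µM ZSTK474 (horizontal axis) of the 29 tested probe sets (vertical axis), with 1 coloured point per cell line and a black bar for the fitted change ± SE; an asterisk marks an adjusted p under 0.05 in limma. The 3 BCL6 probe sets lie furthest to the right, at 2.42, 2.03 and 1.72, and no probe set with an asterisk lies to the left of 0.

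At 0.3 µM, 2 of the 29 member probe sets rose, both of BCL6, and 0 fell, beside 3.08% of all probe sets that rose and 2.25% that fell. In limma the unadjusted p was under 0.05 for 6 of the 29, of which 0 were lower. It was under 0.05 for 6593 of all 27279 probe sets, in either direction, so the member share is near the background. For BCL6 203140_at the change was 1.27 (SE 0.18, 2.42-fold) and for 215990_s_at it was 1.49 (SE 0.20, 2.81-fold), each with an adjusted p of 0.00842 in limma and each higher in 4 of 4 lines. Without Aska-SS these became 1.13 (adjusted p 0.104) and 1.55 (adjusted p 0.0884), and without Fuji the first became 1.32 (adjusted p 0.058) in limma. Neither BCL6 probe set passed without the filter (adjusted p 0.0752 and 0.0567) or without the mean-variance trend (0.0645 for both). Over all probe sets, 1453 passed in the reported fit, 9 without the filter and 0 without the trend. Leaving out Aska-SS gave 1, and leaving out Fuji gave 29. The third BCL6 probe set had a change of 0.61 (SE 0.23, adjusted p 0.131 in limma).

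By brightest probe set, 1 of the 10 genes rose at 0.3 µM, beside 3.88% of all genes. The largest change among those that did not pass was that of CITED2, with 0.50 (95% interval 0.13 to 0.87, adjusted p 0.0994 in limma) and all 4 lines higher, followed by KLF11 with 0.45 (0.10 to 0.81, adjusted p 0.114). The others had changes from -0.14 for KLF2 to 0.38 for KLF4. The comparisons of 0.3 and of 3 µM with 0 µM share the control arrays, so their values are set side by side in the plot of both doses and were not correlated.

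From 0.3 to 3 µM, 7 of the 29 probe sets rose and 0 fell in limma, with 15 at an unadjusted p under 0.05, of which 1 was lower. Over all 27279 probe sets tested, 7324 had an unadjusted p under 0.05 in limma, in either direction. The share that rose was 24.1%, beside 4.99% of all probe sets that rose and 6.53% that fell. By brightest probe set, 4 of the 10 genes rose, beside 6.66% of all genes. BCL6 rose by 1.15 (SE 0.18, adjusted p 0.00381 in limma), KLF9 by 0.67 (SE 0.13, adjusted p 0.00867), KLF3 by 0.57 (SE 0.13, adjusted p 0.0159) and KLF6 by 0.47 (SE 0.11, adjusted p 0.0177). Without Aska-SS, KLF9, KLF3 and KLF6 no longer passed (adjusted p of 0.0702, 0.0845 and 0.0876), and without SYO-1 they no longer passed either (adjusted p of 0.0521, 0.094 and 0.0545). Without the filter on dim probe sets the 3 had adjusted p of 0.0553, 0.0784 and 0.109 in limma, and without the mean-variance trend KLF3 and KLF6 had 0.0526 and 0.0754. In all, 1 of the 28 member probe sets that then passed the filter was called without Aska-SS, and 4 of 27 without SYO-1. Over all probe sets, 3142 were called in the reported fit, 896 without Aska-SS and 916 without SYO-1. CITED2, with 0.18, and KLF7, with -0.02, had adjusted p of 0.55 and 0.953.

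**Figure D3:**
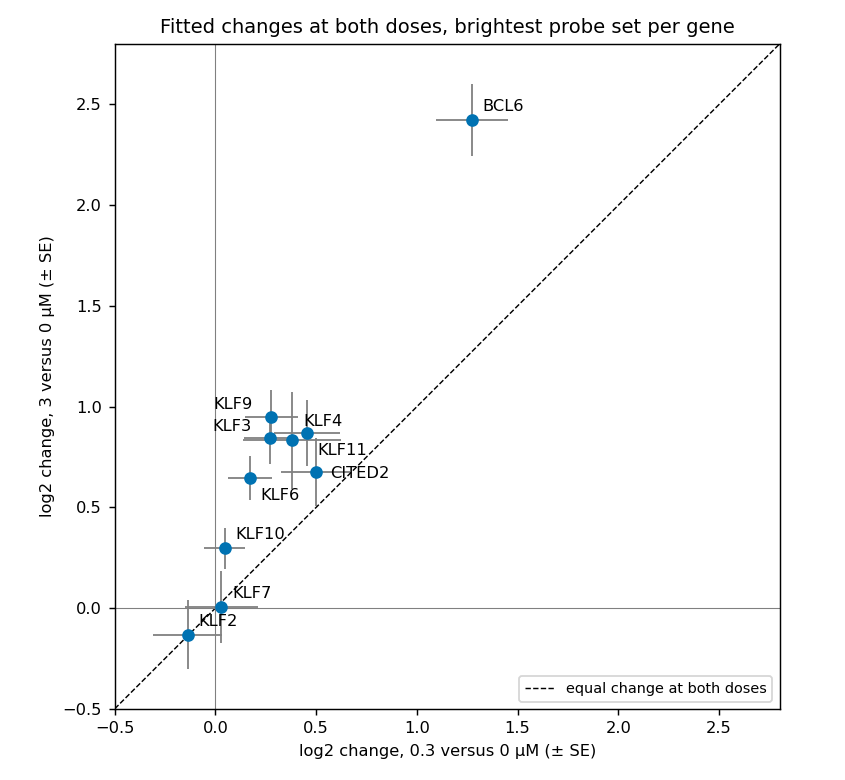
Fitted log2 change of the brightest probe set of each gene at 0.3 µM (horizontal axis) and at 3 µM ZSTK474 (vertical axis), both against 0 µM and sharing its arrays, with bars of ± SE; the dashed line marks equal change at both doses. BCL6, at 1.27 and 2.42, stands apart from the 9 other genes, which lie at or under 0.50 at 0.3 µM and under 1 at 3 µM.

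The cell lines differed in the mean levels of these genes over the 3 doses. In a test across the 4 lines, 24 of the 29 member probe sets passed, beside 76.3% of all probe sets, so this share is near the background. Each line entered with its 3 arrays at different doses. Between pairs of lines, the share of all probe sets that passed was 49.3% for Aska-SS and SYO-1, 55.7% for Aska-SS and Yamato-SS, 40.9% for Aska-SS and Fuji, 46.4% for SYO-1 and Yamato-SS, 40.8% for SYO-1 and Fuji, and 52.9% for Yamato-SS and Fuji.

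CITED2 and KLF4 had the widest ranges. CITED2 was 4.96 higher in Aska-SS than in Fuji on the log2 scale (31.0-fold, adjusted p 1.23e-09 across lines in limma), and SYO-1 lay above Yamato-SS. Its first step was 3.12 and its second 1.40, and the step from Yamato-SS to Fuji (0.43, adjusted p 0.0811 in limma) did not pass. KLF4 was 5.27 higher in Aska-SS than in Yamato-SS (38.5-fold), in the order Aska-SS, SYO-1, Fuji and Yamato-SS, with steps of 2.30, 2.19 and 0.77 that all passed. The order of Fuji and Yamato-SS was not the same throughout. At 3 µM Yamato-SS (268) lay above Fuji (233), and the dimmer probe set 220266_s_at had Yamato-SS above Fuji, with floored values in both.

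KLF2 and KLF11 were set apart by Yamato-SS. KLF2 lay 2.82 lower in Yamato-SS than in Aska-SS (SE 0.20, adjusted p 1.29e-07 in limma), while the steps from Fuji to SYO-1 (0.04) and from SYO-1 to Aska-SS (0.13) did not pass. For KLF11 the step from Fuji down to Yamato-SS was 1.69 (adjusted p 1.02e-05 in limma), and the steps from Aska-SS to SYO-1 (0.39) and from SYO-1 to Fuji (0.12) did not pass. KLF3 had the order SYO-1, Aska-SS, Fuji and Yamato-SS, of which the step from SYO-1 to Aska-SS (0.02) did not pass, and the steps of 0.60 and 0.91 passed.

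In the order of KLF7, Fuji lay 1.20 above SYO-1 and SYO-1 lay 0.78 above Aska-SS, both past the threshold, and Yamato-SS was lowest, 0.26 below Aska-SS, which did not pass. KLF9 was highest in Fuji, 0.63 above Aska-SS (adjusted p 0.00519 in limma), and the steps down to Yamato-SS and SYO-1 were 0.01 and 0.02 and did not pass. KLF6 was highest in Aska-SS, 0.46 above Fuji (adjusted p 0.0109 in limma), with Yamato-SS and SYO-1 following in steps of 0.25 and 0.32 that did not pass. The 3 narrowest ranges were those of KLF10, with 0.47 between Yamato-SS and Aska-SS, KLF9, with 0.66, and BCL6, with 0.77 between Fuji and Yamato-SS. No step between neighbours passed for KLF10 or BCL6. By mean over the 3 doses, both SS18-SSX2 lines lay above both SS18-SSX1 lines for KLF2 and KLF7. For KLF2 the step from SYO-1 to Aska-SS (0.13) did not pass, and at 3 µM Fuji (644) lay below Aska-SS (850.4). In the other 8 genes the lines of the 2 fusion genes were mixed in the order. With 2 lines for each, the fusion gene and the line cannot be told apart.

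Genes with a pattern like that of BCL6 were ranked by the Pearson correlation of log2 levels over the 12 arrays after each line was centred on its own mean, among 12123 genes. The 5 highest were GRHPR (r = 0.996), YPEL1 (0.993), ZFYVE1 (0.992), YY1AP1 (0.992) and MKRN1 (0.991), with changes at 3 µM of 0.33, 2.26, 0.80, 0.34 and 1.08. GRHPR encodes glyoxylate and hydroxypyruvate reductase and MKRN1 a ubiquitin ligase. All points share the same 12 arrays, and these values are a description. Among the members, KLF9, KLF6 and KLF11 each had r = 0.90 with BCL6 and ranks of 946, 945 and 956, followed by CITED2 (0.88), KLF3 (0.87), KLF4 (0.70), KLF10 (0.62), KLF7 (0.05) and KLF2 (-0.29).

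Related genes at 3 µM were counted by brightest probe set, and the median change over all 12124 genes was 0.014, with 22.5% of them rising and 21% falling. The gene lists too were chosen with earlier results of these data known, so their counts are a description and not a test. Of the 9 other KLF genes 6 were tested, of which 2 rose and 1 fell, with a median of 0.58. KLF13 (0.54, adjusted p 0.00197 in limma) and KLF12 (0.82, adjusted p 0.0232) rose and KLF16 (-0.52, adjusted p 0.03) fell. Of 5 tested SP factor genes, which bind the same GC boxes, SP3 (0.47), SP4 (0.41) and SP1 (0.42) rose, with a median of 0.41. None of the 6 corepressor genes of KLF proteins passed in limma in either direction, 0 had an unadjusted p under 0.05, and their median was 0.076.

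Among 7 tested genes of the BCL6 paralog and the corepressors, TBL1XR1 (0.56), TBL1X (0.38) and BCOR (0.42) rose and GPS2 (-0.33) fell, with a median of 0.26. Of 12 tested genes that BCL6 is known to repress in B cells, 3 rose and 4 fell, with a median of -0.14, and these shares are near the 22.5% and 21% of all genes. CHEK1, a checkpoint kinase gene, fell (-0.86, adjusted p 0.00146 in limma), and so did CCND2 (-0.60), ATR (-0.30) and SOCS2 (-0.28). ID2 (0.82, adjusted p 0.00362 in limma), PRDM1 (0.61), which encodes the factor of plasma cell differentiation, and CD44 (0.48) rose. Some of the genes that fell, such as CCND2 and CHEK1, are also known as genes of the cell cycle, and why they fell was not tested.

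Of 14 tested FOXO factors and FOXO target genes, 12 rose and 1 fell, with a median of 1.41, where 22.5% of all genes rose and 21% fell. CDKN1B, an inhibitor of cyclin-dependent kinases, rose by 1.03, KLHL24 by 2.70 and FOXO3 by 1.48, and GADD45A fell by 0.45. At 0.3 µM 7 of the 14 rose, beside 3.88% of all genes. Of 10 tested TGF-beta target genes 8 rose, beside 22.5% of all genes, with a median of 0.60, among them SKI (0.79), SMAD6 (1.19) and ID1 (0.96).

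In the list of CITED genes and CITED2 partners, 5 genes were tested, all of them partners. CREBBP (0.90, adjusted p 1.47e-05 in limma), EP300 (0.73) and TFAP2A (0.84) rose, beside 22.5% of all genes, with a median of 0.73 over the 5. CREBBP and EP300 encode CBP and p300. Immediate early genes are a group that growth factors induce within minutes and to which several KLF genes are often added. Of 16 tested, 2 rose and 3 fell, beside 22.5% and 21% of all genes, with a median of -0.15. SRF fell by 1.40 (adjusted p 0.000916 in limma), and ZFP36L1 (0.86) and ZFP36 (0.51) rose.

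**Figure D4:**
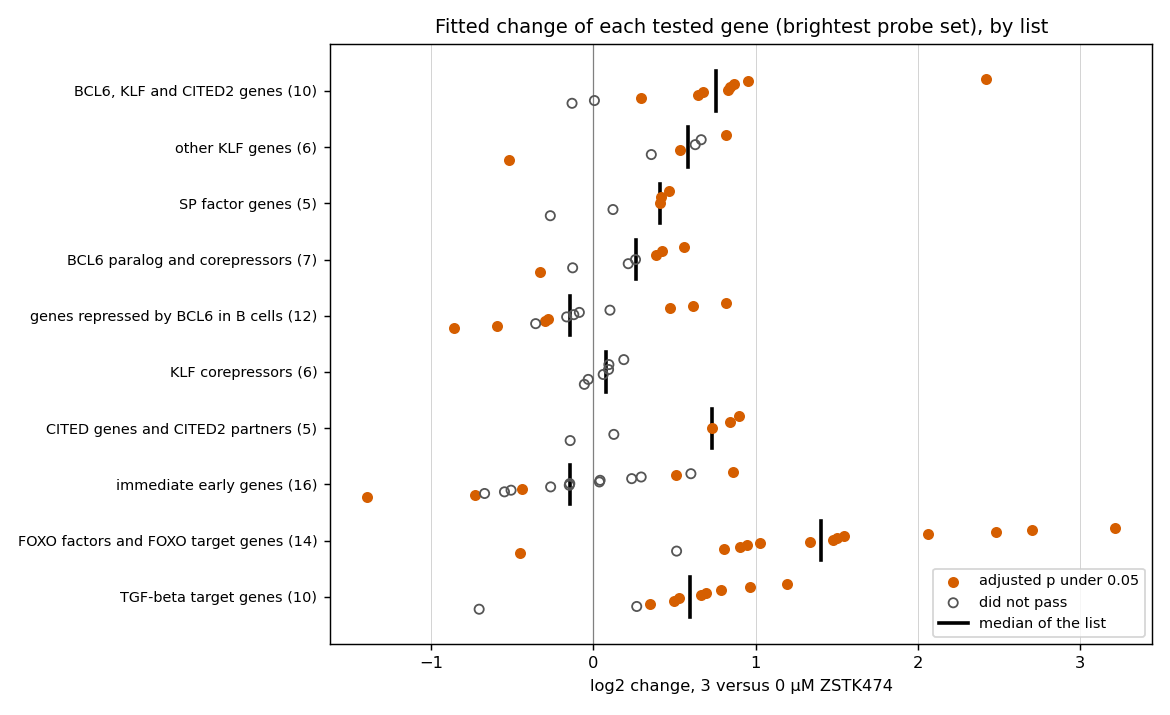
Fitted log2 change from 0 to 3 µM ZSTK474 (horizontal axis) of each tested gene by its brightest probe set, with 1 row per list and the number of genes in brackets; filled points passed an adjusted p of 0.05 in limma, open points did not, and the black bar is the median of the list. BCL6 is the point at 2.42 in the top row, the FOXO list has a median of 1.41, and the KLF corepressors have no filled point.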

How the data were processed

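Total RNA of 12 cultures was labelled with biotin and hybridised to Affymetrix arrays. The authors deposited linear signal intensities from MAS5, of a version not given in the sources used. The 2% trimmed mean was 500.1 on each array. The methods name quantile normalization, which the deposited columns did not show, so it was applied here. Intensities were floored at the 20th percentile (12.1) and log2 was taken. Probe sets with a mean above the median (log2 6.03, intensity 65.4) were kept, without the 62 control probe sets, which left 27279. Of all probe sets, 41097 had 1 gene symbol, 1801 several and 11777 none, and 0 symbols were updated. limma 3.58.1 in R 4.3.3 fitted dose and cell line over all 12 arrays with a mean-variance trend, and Benjamini-Hochberg adjustment ran over all probe sets tested. Code was tested on simulated data. Depth has no meaning for arrays, whose number limits the precision.

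Replicate numbers are the cell lines, so arrays were paired by line. Deviations from dose means correlated with r = 0.788 to 0.907 within a line and -0.415 to -0.103 between lines. The deviations of the lines cancel at each dose, so the negative values between lines follow from the subtraction and are no check of the pairing.

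The members and gene lists were chosen with earlier results of these data known. Named genes were all members, the 5 most correlated with BCL6, and up to 3 of each list by adjusted p, with GADD45A, GPS2 and, from the BCL6-repressed list, CD44, CCND2, ATR and SOCS2 named after their values were seen. Alternatives changed normalization, floor, filter, probe set choice, model and cell lines.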

Additional observations from a re-analysis of the deposited data

Results flagged for a closer look

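Of 117 groups of 4 values examined, 4 held 1 cell line far from the other 3 by Dixon's test at the 95% level, and chance gives about 1 group in 20. The log2 level of KLF2 219371_s_at in Yamato-SS was 6.97 at 0 µM, where the other lines lay at 9.58 to 9.91. It was 6.46 at 0.3 µM against 9.50 to 10.09, and 6.92 at 3 µM against 9.33 to 9.75. The change of KLF4 220266_s_at from 0.3 to 3 µM was 2.41 in Yamato-SS and 0 to 0.19 in the other lines, and the Yamato-SS value at 0.3 µM lay under the floor. The Fuji values at 0.3 and 3 µM lay under the floor too, so the 0, which is that of Fuji, is not a measured change.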

How the results depend on the processing

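Calls at 3 against 0 µM stayed within a factor of 1.5 of the 16 reported (12 to 18) in all alternatives but the next ones named, including each with 1 cell line left out (12 to 14). Taking 1 probe set per gene, which tests fewer, left 8. The arrays are paired by line, and without the replicate block the counts were 3 at 3 against 0 µM (all of BCL6; 5 at an unadjusted p under 0.05), 0 at 0.3 µM (2 unadjusted) and 0 at 3 against 0.3 µM (4 unadjusted) in limma. Over all probe sets, the calls in the same order were 10741, 1453 and 3142 with the block and 584, 0 and 0 without it. At 0.3 µM, 1 remained with 1 probe set per gene, 0 without the filter (6 unadjusted) and 0 without the mean-variance trend (6 unadjusted), and 0 to 2 with 1 line left out, 0 of them without Aska-SS (5 unadjusted). Over all probe sets, 9 passed at 0.3 µM without the filter and 0 without the trend. With 1 line left out, 1 to 499 passed, the lowest of them without Aska-SS. From 0.3 to 3 µM the counts were 1 without the filter, 4 with 1 probe set per gene, 4 without the trend, and 1 to 8 with 1 line left out. Over all probe sets, 976 passed in this comparison without the filter and 1438 without the trend. With 1 line left out, 896 to 2355 passed. Between lines, 10 passed with 1 probe set per gene. The causes were not tested.

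No called value changed sign. Some changes that did not pass changed sign. With array weights, KLF7 204334_at was -0.0097 at 3 µM and -0.0082 at 0.3 µM, and KLF9 230636_s_at was -0.036 at 3 µM. Without quantile normalization, at 0.3 µM KLF7 238482_at was 0.056 and KLF10 was -0.0088, and from 0.3 to 3 µM KLF7 204334_at was 0.076. With log2 of the value plus 16, KLF2 219371_s_at was -0.0073 from 0.3 to 3 µM. With 1 line left out at 3 against 0 µM, KLF2 219371_s_at ranged from -0.23 to 0.016, KLF3 219657_s_at from -0.14 to 0.28, KLF3 222913_at from -0.077 to 0.36, KLF7 204334_at from -0.085 to 0.10, KLF7 1555420_a_at from -0.14 to 0.20, KLF7 238517_at from -0.84 to 0.0062 and KLF9 230636_s_at from -0.13 to 0.19. At 0.3 µM KLF7 204334_at ranged from -0.072 to 0.16 and KLF7 238517_at from -0.017 to 0.48. From 0.3 to 3 µM KLF2 219371_s_at ranged from -0.14 to 0.26, KLF3 222913_at from -0.12 to 0.22, KLF7 204334_at from -0.13 to 0.18 and KLF7 1555420_a_at from -0.46 to 0.0015.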
